A study of Mus musculus with 14 samples.

Results

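Making a ribosome starts in the nucleolus, and the 10 genes described here each serve a step of that work. Polr1a and Polr1b encode the catalytic subunits of RNA polymerase I. Fbl, Nop56 and Nop58 encode core proteins of the box C/D small nucleolar ribonucleoproteins, and Dkc1 the enzyme of the box H/ACA kind. Bop1 and Gnl3 act in the large subunit, and Ncl and Npm1 encode the abundant nucleolar proteins nucleolin and nucleophosmin. They were chosen by name, 10 of the 20207 genes listed for each RNA library, and all 10 were found and passed the filter on low values. The choice was made with results of these libraries known, in particular the lower Gnl3 level in treated wild-type cells. The wild-type response, the difference of responses that contains it and the comparison of treated genotypes, which uses the same treated libraries, are therefore described for these genes with levels, folds and errors and without p-values. Counts of calls there describe the chosen genes and nothing is read from them. The comparison of untreated genotypes shares the untreated wild-type libraries with the wild-type response, so its p-values are not free of that choice either.

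The cells were mouse embryo fibroblasts (MEFs), all of the 129/Sv strain and labelled either wild-type or p53-/- (p53-null here). Both genotypes were left untreated or given doxorubicin, a topoisomerase II poison that breaks DNA, at 0.2 µg/ml. Treated cells were collected after 6 h, and no time is given for the untreated ones. The 2 wild-type groups hold 3 libraries each and the 2 p53-null groups hold 2 each, sequenced from the 3' ends of poly(A) RNA. The labels number the replicates without saying whether they are separate embryos or cultures, so p-values measure only the spread between these libraries. The study's stated questions were which genes respond to DNA damage in each genotype and which differ between the genotypes without damage.

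Ribosome production begins when RNA polymerase I copies the ribosomal DNA into one long precursor. Box C/D particles then methylate the precursor and box H/ACA particles convert chosen uridines to pseudouridine, while assembly factors cut, fold and export the growing subunits. MYC is the best known activator of the genes for this machinery, and p53 is known both to restrain it and to be stabilised when it fails, through ribosomal proteins that bind MDM2.

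The libraries held 9768160 to 11770448 reads over the listed genes in wild-type libraries, against 18099506 to 25970157 in p53-null ones, so depth went with genotype and the 2 cannot be told apart in comparisons between genotypes. In p53-null cells depth also went with treatment, at 18099506 and 18698205 reads untreated and 25252375 and 25970157 treated. Depth and treatment cannot be told apart in the p53-null response, which the difference of responses contains. Trp53, the gene for p53, had 19.9 to 25.4 CPM (counts of a gene scaled to a common library size) in untreated wild type and 67.8 to 75.6 in untreated p53-null cells, which as 3' reads is no check of the deleted stretch. The p53 target Cdkn1a, encoding the cell-cycle inhibitor p21, separated the labels, at 554 to 5051 CPM in wild-type and 29.9 to 54.6 CPM in p53-null libraries. All 10 fibroblast markers were measured and none was at 0 in any group, with summed levels of 3037 to 7127 CPM in wild-type and 3925 to 5622 CPM in p53-null libraries. Endothelial markers summed to at most 4.49 CPM and epithelial markers to at most 36.4 CPM, each with 1 of 7 tested.

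Upstream sequence was at hand for 7 of the 10 genes, from RefSeq on mouse build GRCm38.p6: Gnl3, Polr1a, Polr1b, Nop56, Nop58, Dkc1 and Ncl. Fbl, Npm1 and Bop1 had no entry. The 250 bases before the start site are printed for the 4 genes with the largest falls in treated wild-type cells (5′ to 3′ on the gene's strand). Capitals mark matches to the motifs named in the paragraph on promoters.
Gnl3, chr14:31019132-31019381, minus strand: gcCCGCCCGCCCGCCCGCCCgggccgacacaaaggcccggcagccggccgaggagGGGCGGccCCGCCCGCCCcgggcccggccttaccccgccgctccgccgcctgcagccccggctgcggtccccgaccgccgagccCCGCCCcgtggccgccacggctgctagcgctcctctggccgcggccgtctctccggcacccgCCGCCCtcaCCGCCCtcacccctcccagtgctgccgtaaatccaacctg
Polr1b, chr2:129100746-129100995, plus strand: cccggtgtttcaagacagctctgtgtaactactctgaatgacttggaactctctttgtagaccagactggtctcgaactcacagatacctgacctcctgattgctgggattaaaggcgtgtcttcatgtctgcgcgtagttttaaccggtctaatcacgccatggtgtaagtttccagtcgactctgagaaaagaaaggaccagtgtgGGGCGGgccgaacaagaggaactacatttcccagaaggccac
Dkc1, chrX:75095604-75095853, plus strand: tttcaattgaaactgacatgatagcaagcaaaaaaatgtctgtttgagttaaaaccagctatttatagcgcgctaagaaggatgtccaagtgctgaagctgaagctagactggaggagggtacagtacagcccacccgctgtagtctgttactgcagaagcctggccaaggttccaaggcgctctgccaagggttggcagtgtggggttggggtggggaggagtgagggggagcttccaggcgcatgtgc
Nop56, chr2:130274162-130274411, plus strand: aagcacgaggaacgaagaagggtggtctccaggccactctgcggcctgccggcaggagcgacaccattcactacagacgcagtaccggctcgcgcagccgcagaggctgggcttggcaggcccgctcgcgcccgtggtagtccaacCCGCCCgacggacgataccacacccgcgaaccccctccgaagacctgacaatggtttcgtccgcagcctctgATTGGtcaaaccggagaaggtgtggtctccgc

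Doxorubicin lowered 6 of the 10 genes in wild-type MEFs (Gnl3, Polr1b, Dkc1, Nop56, Polr1a and Fbl), and raised none, with limma at an adjusted p under 0.05. Over all 11090 genes tested, 4.64% were called lower and 7.97% higher. For these 6, every treated library lay under every untreated one, which held for 12.2% of all tested genes in this direction. The median log2 fold of the 10 genes was -0.68, against 0.04 over all tested genes. The rule used this contrast, so the counts are a description of the chosen genes. In bulk RNA, fewer cells of a type and less RNA per cell cannot be told apart.

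**Figure D1:**
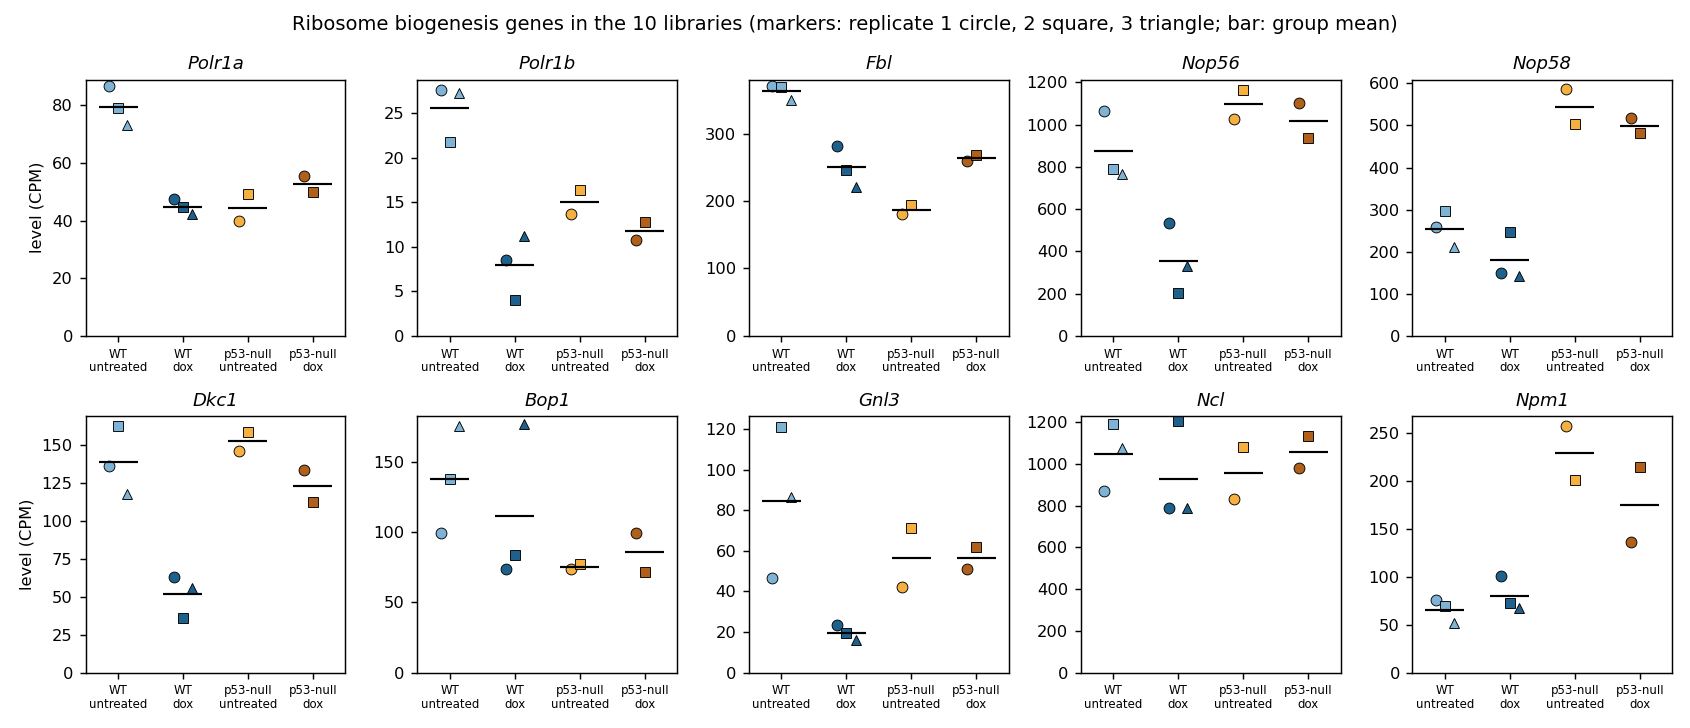
Level of each of the 10 genes in CPM (vertical axis, linear, from 0) in the 4 groups; each marker is a library, its shape the replicate number, and each bar a group mean. The treated wild-type libraries sit lowest for Gnl3 (15.8 to 23.5 CPM), Dkc1 and Nop56, while the p53-null groups overlap or lie close for most genes.

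The genes are taken in the order of the pathway, starting with RNA polymerase I. Polr1a, for the largest subunit, stood at 86.5, 78.9 and 73.2 CPM in untreated wild-type libraries 1, 2 and 3 and at 47.5, 44.5 and 42.4 CPM in the treated ones. The 2 groups were tight and well apart, with a log2 fold of -0.82 (SE 0.18), or 0.567 times the untreated level. In p53-null cells Polr1a stood at 39.7 and 49.2 CPM untreated and at 55.4 and 49.8 CPM treated, a log2 fold of 0.25 (SE 0.22, limma adjusted p = 0.694). Both p53-null groups lay near the treated wild-type level. Without the untreated wild-type library 2 the wild-type fall of Polr1a no longer passed.

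Polr1b, for the other catalytic subunit, had 27.6, 21.8 and 27.4 CPM in untreated wild type. The treated libraries had 8.5, 4.1 and 11.2 CPM, so even the highest of them was below the lowest untreated one. The fold was -1.73 (SE 0.33), leaving 0.302 times the untreated level. In p53-null cells the values were 13.7 and 16.4 CPM untreated and 10.8 and 12.8 CPM treated, all under the untreated wild-type range, and the lower treated value reached into the treated one. Their log2 fold was -0.33 (SE 0.41, limma adjusted p = 0.795), with a 95% interval from -1.25 to 0.58.

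Nop56 had the largest wild-type fold of the 3 box C/D core proteins. Untreated wild-type libraries had 1065, 789 and 767 CPM, and treated ones 534, 201 and 332 CPM. The treated libraries spread widely, library 2 lowest, yet did not overlap the untreated ones. The log2 fold was -1.39 (SE 0.31). In p53-null cells Nop56 stood at 1028 and 1164 CPM untreated and at 1101 and 934 CPM treated, overlapping groups with a log2 fold of -0.11 (SE 0.38, limma adjusted p = 0.940). The wild-type call was lost when the wild-type libraries were fitted alone, and without both p53-null libraries numbered 2.

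Fbl encodes fibrillarin, the methyltransferase of the same particle. Its untreated wild-type libraries were nearly alike at 370.3, 369 and 350.2 CPM, and the treated ones had 282, 246 and 221 CPM. The groups did not overlap, and the log2 fold was -0.55 (SE 0.15), 0.685 times the untreated level. The call was the least stable of the 6, lost under 12 of 23 alternatives, among them leaving out any of the 6 wild-type libraries. In p53-null cells Fbl stood at 180.1 and 194 CPM untreated and at 259 and 269 CPM treated. Those groups did not overlap either, with the treated libraries above, a log2 fold of 0.50 (SE 0.19, limma adjusted p = 0.394, 95% interval 0.08 to 0.92).

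Nop58, the partner of Nop56 in the particle, did not pass in wild type. Its levels were 258, 297 and 210.3 CPM untreated and 149, 246 and 142 CPM treated, with treated library 2 inside the untreated range. The log2 fold was -0.54 (SE 0.23). With the replicate number as a block within each genotype, Nop58 passed as well, for 7 genes in place of 6. It also passed without the treated wild-type library 2. In p53-null cells the values were 586 and 503 CPM untreated and 517 and 482 CPM treated, a log2 fold of -0.12 (SE 0.29, limma adjusted p = 0.906).

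Dkc1 encodes dyskerin, the pseudouridine synthase of box H/ACA particles and a component of telomerase. Untreated wild-type libraries had 136, 162 and 118 CPM, and treated ones 63.2, 36.1 and 55.8 CPM. The groups stood well apart, with a log2 fold of -1.44 (SE 0.23), or 0.368 times the untreated level. In p53-null cells Dkc1 stood at 146 and 159 CPM untreated and at 134 and 112 CPM treated. The treated p53-null libraries were lower than the untreated ones without overlap, but by a log2 fold of -0.31 (SE 0.29, limma adjusted p = 0.712).

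Gnl3, encoding the GTP-binding nucleolar protein nucleostemin, is abundant in dividing and stem cells and had the largest fold of the 10. The untreated wild-type libraries ranged from 46.5 CPM in library 1 to 121 in library 2, with 86.5 in library 3. The treated libraries were low and close together at 23.5, 19.4 and 15.8 CPM. The log2 fold was -1.998 (SE 0.35), leaving 0.25 times the untreated level. In p53-null cells Gnl3 had 42.3 and 71.2 CPM untreated and 50.9 and 62 CPM treated, with the treated values inside the untreated range. That fold was 0.03 (SE 0.43, limma adjusted p = 0.983), and its 95% interval ran from -0.91 to 0.98, which includes changes of nearly one log2 unit either way.

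Bop1 works with Pes1 and Wdr12 in processing the large-subunit RNA. Its wild-type libraries overlapped, at 99.5, 138 and 175 CPM untreated and 73.7, 83.7 and 177 CPM treated. Library 3 was the highest in both groups, and the log2 fold was -0.38 (SE 0.34). The p53-null libraries had 73.6 and 77 CPM untreated and 99.5 and 71.5 CPM treated, a log2 fold of 0.16 (SE 0.41, limma adjusted p = 0.912).

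Nucleolin and nucleophosmin, which bind precursor RNA and chaperone histones and ribosomal proteins, did not pass in either genotype. Ncl overlapped throughout, with 869, 1193 and 1076 CPM in untreated and 791, 1207 and 789.7 CPM in treated wild type. Its log2 folds were -0.19 (SE 0.22) in wild type and 0.15 (SE 0.27, limma adjusted p = 0.863) in p53-null cells, where it stood at 833 and 1079 CPM untreated and at 981 and 1135 CPM treated. Npm1 was the only one of the 10 with a wild-type fold above 0, at 0.29 (SE 0.25), from 75.5, 69.5 and 51.7 CPM to 100.5, 72.4 and 67.9 CPM. In p53-null cells Npm1 ranged from 137 to 257 CPM, with a log2 fold of -0.41 (SE 0.31, limma adjusted p = 0.634). Npm1 has near-identical processed copies in the genome, so how its reads were assigned is uncertain.

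In p53-null MEFs none of the 10 genes passed with limma, and 0.0% of all tested genes did. At an unadjusted p under 0.05 only Fbl stood out among the 10, against 11.2% of all genes, and limma voom gave the same counts for the 10 genes. The median log2 fold of the 10 was -0.04, and that of all tested genes was -0.04 as well. Fbl and Polr1a were higher and Dkc1 and Polr1b lower without overlap between the 2 libraries of each group, 4 of 10 genes where 52.7% of all genes did not overlap.

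**Figure D2:**
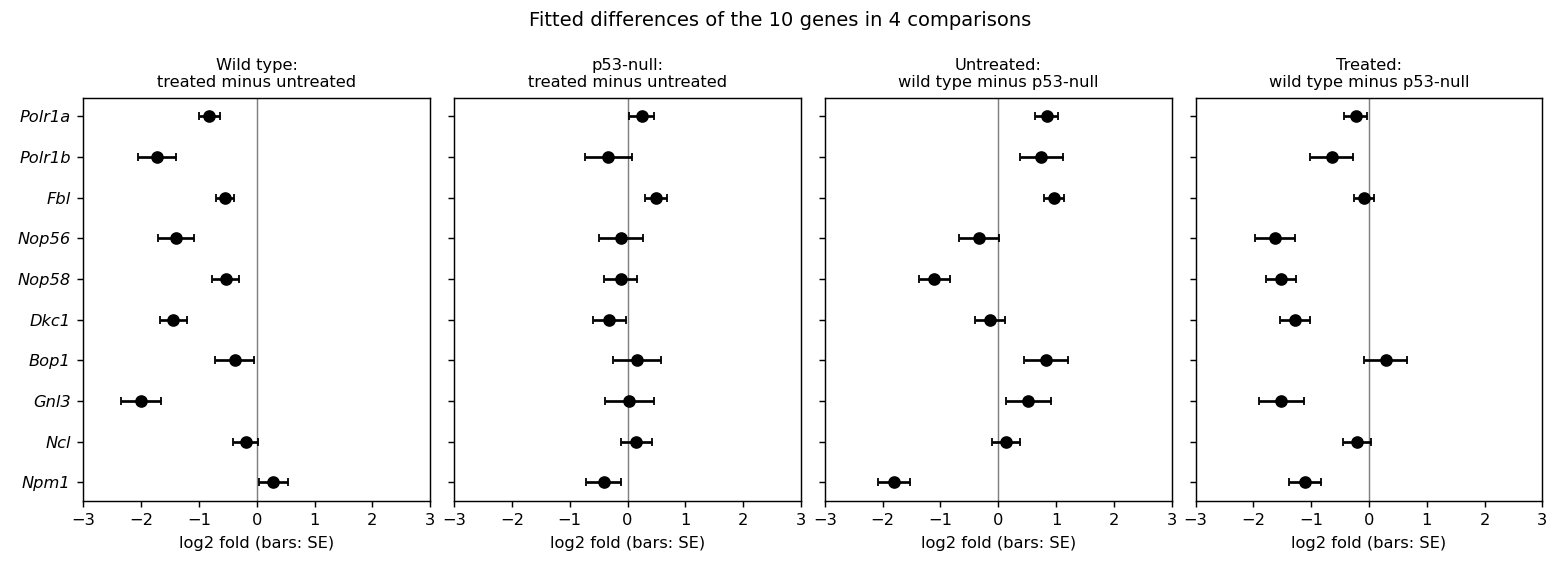
Fitted log2 folds (horizontal axis) with SE bars for the 10 genes in 4 comparisons that share libraries. In wild type 9 of 10 points lie under 0 (47.4% of all tested genes did), with a median of -0.68. In p53-null cells the points lie on both sides, with a median of -0.04.

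The wild-type response minus the p53-null response was under 0 for 9 of the 10 genes, and for 46.8% of all tested genes. The lowest were -2.03 (SE 0.55) for Gnl3, -1.39 (SE 0.53) for Polr1b and -1.28 (SE 0.49) for Nop56. Dkc1 followed at -1.13 (SE 0.37), Polr1a at -1.07 (SE 0.28) and Fbl at -1.04 (SE 0.24), and Npm1 alone was above 0 at 0.70 (SE 0.39). The median was -1.05, against 0.09 over all tested genes. The main limma fit did not pair same-numbered libraries. In that fit none of the 10 passed at an adjusted p under 0.05, where 0.541% of all genes were called lower. At an unadjusted p under 0.05, 6 were lower, against 8.91% of all genes, and limma voom gave 0 and 6. With the replicate number as a block 1 gene passed (Gnl3), and with a block within each genotype 4 did (Gnl3, Fbl, Nop56 and Polr1a). Over all genes these 2 fits called 445 and 1044, against 251 in the main fit. One library also decided a call here, since Gnl3 passed without the untreated wild-type library 1.

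Changes between same-numbered libraries showed how evenly the genes moved. Polr1a dropped by 0.86, 0.82 and 0.78 on the log2 scale in wild-type pairs 1, 2 and 3, the most even of the 10. Gnl3 changed by -0.97 in pair 1 against -2.61 and -2.41 in pairs 2 and 3. Polr1b, Dkc1 and Nop56 each had their largest drop in pair 2, by 2.29, 2.15 and 1.97. Fbl changed by -0.39, -0.58 and -0.66 in the wild-type pairs and by 0.52 and 0.47 in the p53-null pairs.

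Between untreated cells, 4 of the 10 genes differed by genotype, where 32.5% of all tested genes did (12.7% higher and 19.8% lower in wild type). This comparison shares its untreated wild-type libraries with the wild-type response, so its p-values for these genes are not independent of their choice. Fbl and Polr1a were higher in wild type, by log2 folds of 0.96 (SE 0.17, limma adjusted p = 0.0055) and 0.84 (SE 0.20, adjusted p = 0.0131). Npm1 and Nop58 were higher in p53-null cells, with wild type minus p53-null at -1.81 (SE 0.28, limma adjusted p = 0.0032) and -1.10 (SE 0.26, adjusted p = 0.0132). Npm1 averaged 65.6 ± 12.4 CPM (SD, n = 3) in wild type and 229 ± 39.3 CPM (SD, n = 2) in p53-null cells, the largest basal gap of the 10. The libraries of the genotypes did not overlap for 6 of the 10, where 64.2% of all genes did not. Of the 10, 6 did not pass, from Bop1 at 0.83 (SE 0.38, limma adjusted p = 0.113) to Dkc1 at -0.15 (SE 0.26, adjusted p = 0.687). Gnl3 was 0.52 (SE 0.39, limma adjusted p = 0.324), with 84.7 ± 37.3 CPM in wild type and 56.7 ± 20.4 CPM in p53-null cells (SD, n = 3 and 2). Leaving out either untreated p53-null library left 1 call, Npm1, and leaving out the untreated wild-type library 3 lost Nop58. The calls over all genes moved too, from 3602 to 424 without untreated p53-null library 1.

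Under treatment 5 of the 10 genes were lower in wild type than in p53-null cells and none was higher, with limma at an adjusted p under 0.05, where 5.64% of all tested genes were called lower and 6.46% higher. The treated wild-type libraries lay wholly under the p53-null ones for 6 genes, where 23.3% of all genes did. Wild type minus p53-null was -1.52 (SE 0.26) for Nop58, -1.28 (SE 0.26) for Dkc1 and -1.62 (SE 0.35) for Nop56. It was -1.11 (SE 0.28) for Npm1 and -1.52 (SE 0.39) for Gnl3. The group means of Gnl3 were 19.6 ± 3.85 CPM (SD, n = 3) in wild type and 56.5 ± 7.80 CPM (SD, n = 2) in p53-null cells. For Fbl and Polr1a, higher in untreated wild type, the treated genotypes stood at -0.09 (SE 0.17) and -0.23 (SE 0.20). Single libraries decided these calls, since 3 genes passed without treated wild-type library 2 or 3, 2 without treated p53-null library 1 and 1 (Nop58) without treated p53-null library 2. This comparison shares its treated wild-type libraries with the wild-type response.

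Summed over the 10 genes, untreated wild-type libraries held 2935 to 3239 CPM and treated ones 1855 to 2160 CPM, while p53-null libraries held 3200 to 3514 CPM untreated and 3343 to 3345 CPM treated. Markers of macrophages and blood, 9 of 13 tested, summed to 95.6 to 509.6 CPM in untreated and 44.5 to 236 CPM in treated wild type, against 82.8 to 121 CPM in p53-null libraries. In the wild-type response 7 of these 9 had a fold under 0 (47.4% of all tested genes did) and their median was -1.07. In p53-null cells 7 of 9 did (52.8% of all), with a median of -0.08. Emr1 and Cd53 were at 0 in untreated wild type. None of these markers passed with limma in any comparison (at an unadjusted p under 0.05, 2 between untreated and 1 between treated genotypes), and their part in the results was not tested.

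The rest of the pathway was followed through 6 lists of 138 further genes, of which 132 were found under the listed symbols and all 132 were tested. In wild type 16 fell and 1 rose, against 4.64% of all genes called lower and 7.97% higher. A fold under 0 was seen for 98 of the 132, and for 47.4% of all tested genes. Their median was -0.29, nearer 0 than the -0.68 of the 10 genes. In p53-null cells none passed with limma, and the median was -0.09. At an unadjusted p under 0.05 there were 6, with 12 by limma voom and 21 with a replicate block within genotype. With the replicate number as a block, 26 passed in wild type, and 37 with a block within each genotype. Without untreated wild-type library 2 or 3, or untreated p53-null library 1, 7, 10 and 10 passed in wild type. Summed levels of the 132 genes were 9929 to 10271 CPM in untreated and 7404 to 7997 CPM in treated wild type, and 8873 to 9783 CPM over all p53-null libraries.

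**Figure D3:**
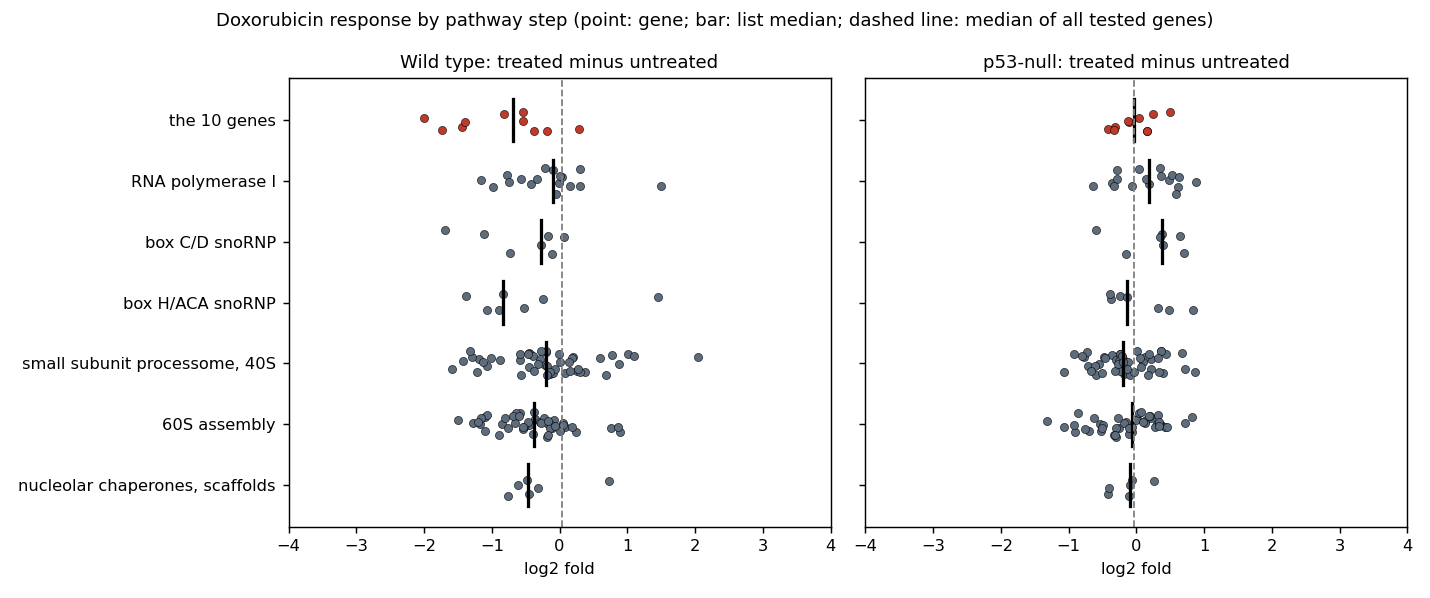
Log2 fold with doxorubicin (horizontal axis) of each tested gene (points) in the 10 chosen genes and the 6 further lists, in wild type (left) and p53-null cells (right); bars are list medians and the dashed line is the median of all tested genes. In wild type the bar of the 10 genes is at -0.68 and that of the box H/ACA list at -0.84, and in p53-null cells these are -0.04 and -0.14.

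By step, the box H/ACA list had 2 of 7 genes lower in wild type, against 4.64% of all genes, and a median of -0.84. A fold above 0 was seen for 1 of the 7, at 1.45, which passed only at an unadjusted p under 0.05. One was Nolc1, a nucleolar chaperone of small nucleolar ribonucleoproteins, at 213, 196 and 186 CPM untreated and 92.7, 70.7 and 66.5 CPM treated, a log2 fold of -1.38 (SE 0.20). In p53-null cells Nolc1 overlapped, with a fold of -0.25 (SE 0.24, limma adjusted p = 0.734). The other was Shq1, an assembly factor of dyskerin. Gar1 and Nhp2, structural partners of dyskerin, had wild-type folds of -0.90 (SE 0.27) and -0.53 (SE 0.16) that did not pass. None of the 7 other box C/D genes passed with limma, adjusted or at an unadjusted p under 0.05, with a median of -0.28, and Znhit6 had a fold of -1.69 (SE 0.77).

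The 60S list had 7 of 46 genes lower and a median of -0.38. Of all tested genes 4.64% were called lower in wild type, the share to set beside each list count here. Nop2, a methyltransferase of the large-subunit RNA, stood at 70.7, 114 and 97.3 CPM untreated and at 36.3, 36.4 and 40.8 CPM treated, a fold of -1.28 (SE 0.22). In p53-null cells Nop2 had 63.3 and 84.8 CPM untreated and 78.7 and 82.1 CPM treated, a fold of 0.13 (SE 0.27, limma adjusted p = 0.884). The assembly factors Ppan and Urb2 fell by 1.16 (SE 0.19) and 1.21 (SE 0.32) on the log2 scale in wild type. The small-subunit list had 5 of 49 lower, Heatr1, Nob1, Wdr43, Nat10 and Bysl, with a median of -0.20 in wild type and -0.20 in p53-null cells. In wild type 17 of the 49 had a fold above 0, up to 2.04, and none was called higher. Heatr1, which acts with the transcription of ribosomal DNA, had the largest fold of the 5 called lower, -1.59 (SE 0.44). Among 6 further scaffold and chaperone genes Mybbp1a fell by 0.77 (SE 0.17), from 634 to 374 CPM.

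Of the 17 further RNA polymerase I genes 1 was lower and 1 higher in wild type, near the shares of all genes (4.64% and 7.97%). Polr1c, a subunit shared with RNA polymerase III, fell by 1.17 (SE 0.33) on the log2 scale. Rrn3, the initiation factor that recruits the polymerase to the ribosomal promoter, was the single riser of the 132. It went from 3.42, 1.90 and 3.00 CPM in untreated to 7.14, 10.2 and 8.43 CPM in treated wild type, a log2 fold of 1.49 (SE 0.29). In p53-null cells Rrn3 stood at 12.1 and 12.1 CPM untreated and at 6.30 and 9.08 CPM treated, a log2 fold of -0.64 (SE 0.35, limma adjusted p = 0.520). The difference of responses passed for Rrn3, at 2.13 (SE 0.45), and for Nat10 and Shq1 at -1.56 (SE 0.31) and -1.91 (SE 0.42), 3 of the 132 genes where 2.26% of all genes passed. That count was 5 without untreated wild-type library 1, 1 without treated wild-type library 2 and 0 without any other single library.

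Untreated genotypes differed for 50 of the 132 genes, 14 higher and 36 lower in wild type, where 12.7% and 19.8% of all tested genes were. Mki67ip, which binds the proliferation antigen Ki-67, was lower in wild type, at -3.79 (SE 0.45, limma adjusted p = 0.00094), with 7.90 against 103 CPM. Eif6, which keeps new large subunits from joining early, was higher in wild type by 1.98 (SE 0.53, limma adjusted p = 0.0209), with 237 against 59.8 CPM. Tcof1, encoding treacle, a cofactor of ribosomal RNA transcription, stood at -1.44 (SE 0.37, limma adjusted p = 0.0171). Nhp2 stood at 0.77 (SE 0.18, limma adjusted p = 0.0122). Under treatment 29 of the 132 were lower and 2 higher in wild type, against 5.64% and 6.46% of all genes. Single libraries moved these counts. The untreated count was 9 and 4 without untreated p53-null library 1 or 2, and 25 and 20 without untreated wild-type library 2 or 3. The treated count was 15 and 2 without treated p53-null library 1 or 2, 14 without treated wild-type library 3 and 20 without untreated p53-null library 1.

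**Figure D4:**
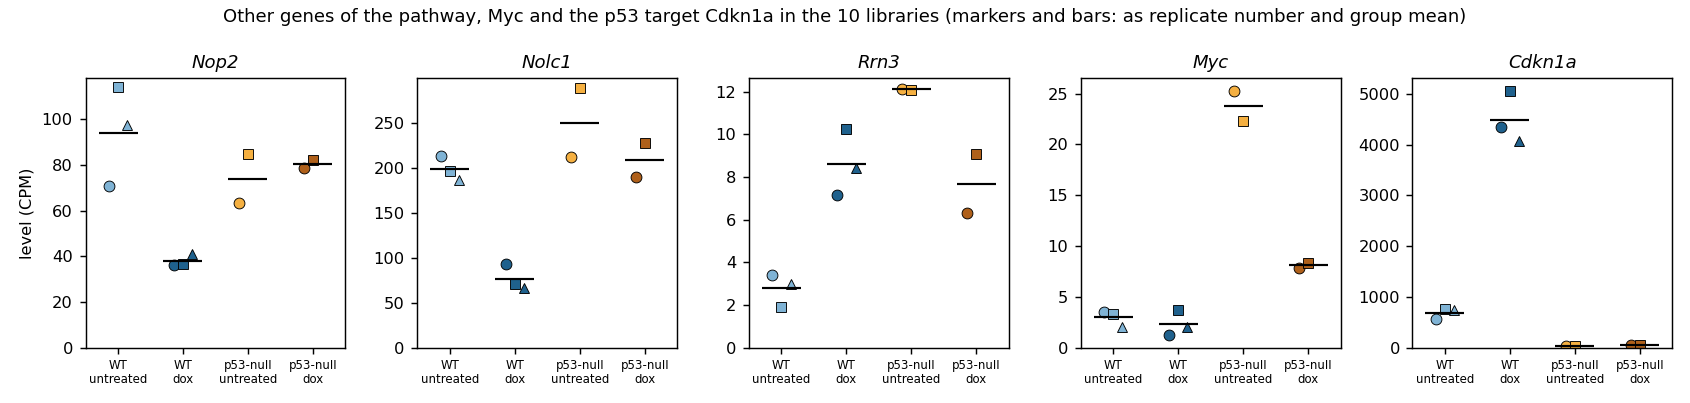
Level in CPM (vertical axes, linear, from 0, each on its own scale) of Nop2, Nolc1, Rrn3, Myc and Cdkn1a by group; markers are libraries and bars group means. Nop2 and Nolc1 are lowest in treated wild type, Rrn3 is lowest in untreated wild type, and Myc is highest in untreated p53-null cells at 22.3 and 25.3 CPM.

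The MYC network list, regulators of these genes, had 2 of 9 tested genes higher in wild type and none lower, against 7.97% and 4.64% of all genes. They were Mxd4 at 1.39 (SE 0.21), from 20.02 to 53.5 CPM, and Mxd1 at 1.75 (SE 0.31), both encoding MAX partners that repress MYC targets. In p53-null cells Mxd4 and Mxd1 had log2 folds of 0.84 (SE 0.25) and 1.07 (SE 0.37), with limma adjusted p of 0.355 and 0.370. The list had 1 call in the difference of responses, Mxd3, another MAX partner, at -1.21 (SE 0.27), with folds of -0.33 (SE 0.17) in wild type and 0.89 (SE 0.21, limma adjusted p = 0.352) in p53-null cells. Myc itself was low in wild type, at 3.54, 3.35 and 2.00 CPM untreated and 1.28, 3.69 and 2.06 CPM treated, overlapping groups with a fold of -0.34 (SE 0.35). In p53-null cells Myc stood at 25.3 and 22.3 CPM untreated and at 7.88 and 8.33 CPM treated, without overlap, at a log2 fold of -1.49 (SE 0.43, limma adjusted p = 0.355). Untreated genotypes differed for Myc by -2.84 (SE 0.39, limma adjusted p = 0.0019). Mnt and Mga were also lower in untreated wild type.

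Of the p53 targets listed as a check of treatment, 9 of 10 rose in wild type, where 7.97% of all genes were called higher. None passed in p53-null cells, where 0.0% of all genes did. At an unadjusted p under 0.05 there was 1, against 11.2% of all genes. The medians of the targets were 2.58 in wild type and -0.07 in p53-null cells. Among 7 tested genes of the arm by which nucleolar stress reaches p53, Mdm2 rose in wild type by 2.83 (SE 0.26) and no other passed in either response. Cdkn2a, whose products include p19Arf, held in the nucleolus by nucleophosmin, stood at 4.6, 2.90 and 1.56 CPM in untreated wild type and at 76.5 and 47.7 CPM in untreated p53-null cells, a difference of -4.21 (SE 0.55, limma adjusted p = 0.0015). Rpl11, a ribosomal protein that binds MDM2, was higher in untreated wild type by 1.02 (SE 0.19, limma adjusted p = 0.0069).

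The 10 genes did not follow one profile over the 10 libraries. As a description over libraries that share groups, Pearson's r of log2 CPM was 0.95 for Nop56 with Dkc1, 0.89 for Fbl with Polr1a and 0.80 for Npm1 with Nop58, and lowest for Npm1 with Bop1 at -0.76. Gnl3 had a positive r with all 9 others, while Npm1 had one with 4. The genes outside the 10 most like their mean profile were Nop2 (r 0.98), Espl1 (0.98), Pcdh18 (0.96), Dhodh (0.96) and Nat10 (0.95). Those most like Gnl3 alone were Ccdc6 (0.98), E2f4 (0.97) and Nop2 (0.97).

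In the promoters, the motifs searched on both strands of the 250 bases were the E-box CACGTG, the CCAAT box CCAAT, the GC box GGGCGG, the ETS core CCGGAAG, the NRF1 core GCGCATGC and the CHR element TTTGAA. The GC box was in 5 of the 7 (Gnl3, Polr1b, Nop56, Nop58 and Ncl), against 32.7% of 32851 mouse promoters, and in Gnl3 its matches overlap in a run. The CCAAT box was in Nop56 and Polr1a (33.8% of all), and the CHR element in Ncl (16.0%). The E-box, ETS and NRF1 letters were in none of the 7, and in 6.02%, 6.91% and 2.26% of all promoters. The printed Dkc1 window matched none of the 6. A match is a description of letters, not a bound site.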

How the data were processed

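RNA was measured in 10 of the series' 14 samples; the p53 binding list was not used, since its build has no annotation at hand. The submitters' processing notes name DESeq and the build mm9; the aligner, annotation and strand are not given in the sources. Reads of genes that overlap on opposite strands may be mixed. The deposited values are 1 per gene on a variance-stabilised scale near log2, with no header. Reads were recovered by walking the curve shared by the libraries, and 99.92% of 20476 values above the starting runs lay within 0.01 of a whole read. The genes described had 44 to 34894 reads per library. The reads carry no stated molecular identifiers, so they are not independent molecules.

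Library sizes were scaled by the trimmed mean of M values (30% and 5% trimmed). With 0.5 added, CPM was taken to log2 and fitted in limma 3.58.1 (trend option, R 4.3.3) with a mean for each group and all 10 libraries. Folds on this scale understate changes of low genes. Genes with at least 1 CPM in 2 libraries were tested (11090), and p-values were Benjamini-Hochberg adjusted over all of them, with a threshold of 0.05, two-sided. The method was tested on simulated data, in which few or no 2-fold changes passed. A gene that was not called may therefore have changed. The 5 comparisons share libraries. Alternatives changed the scaling, filter, added CPM, values, test, libraries in the fit and pairing; the block within genotype was added after seeing the data.

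Members and lists were chosen with earlier results of these data known. All 10 members are named. From each list, up to 4 genes of average log2 CPM 3 or more could be named by size of fold in either response or between untreated genotypes, with the 5 genes most like the members' mean and the 3 most like Gnl3. Shq1, Mxd3, Wdr43, Nat10, Bysl, Mybbp1a, Rrn3, Rpl11 and the MYC and p53 genes, where outside this rule, were named after their values were seen. Same-numbered libraries were checked as pairs by correlating deviations from group means. In wild type r was 0.58, 0.34 and 0.61 for numbers 1, 2 and 3, so the numbers were taken to pair the libraries. In p53-null cells r was 0.39. With 2 libraries a group only its sign could change with the pairing, so the pairs there rest on the labels. The main fit left the pairing out, and only the alternatives with a block used it.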

Additional observations from a re-analysis of the deposited data

Results flagged for a closer look

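Fbl and Polr1a had log2 changes under 0 in each of the 3 same-numbered wild-type pairs of libraries and above 0 in both p53-null pairs. Their treated and untreated groups did not overlap in either genotype. Over all tested genes 12.2% were lower without overlap in wild type and 27.1% higher without overlap in p53-null cells. The share of genes with both was not counted. The p53-null changes were 0.52 and 0.47 for Fbl and 0.47 and 0.02 for Polr1a, so the last pair hardly differed, and neither gene passed in p53-null cells. On subtracting the p53-null response, the wild-type response was -1.04 (SE 0.24) for Fbl and -1.07 (SE 0.28) for Polr1a, in log2 units. Neither difference passed in the main limma fit, which left out the pairing. With a 5 CPM filter, also without pairing, Fbl passed. Both passed with a block within each genotype, an alternative added after the data were seen. That fit called 1044 of all tested genes, against 251 in the main fit. The difference of responses contains the wild-type response known when the genes were chosen, so nothing is read from these passes.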

How the results depend on the processing

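The 6 wild-type calls among the 10 genes ranged from 4 to 6 when 1 library was left out, and calls of further pathway genes (17) from 7 to 16. Those 17 became 11 without a filter, 9 with the wild-type groups alone, 9 without both p53-null libraries numbered 2, 26 with the replicate block and 37 with the block within genotype.

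In the difference of responses the 0 calls among the 10 genes became 1 with a 5 CPM filter, 1 with the replicate block and 4 with the block within genotype, and 0 to 1 leaving out a library. The 3 further pathway calls became 1 with total reads, 0 with upper quartile scaling, 1 without a filter, 5 with the replicate block, 18 with the block within genotype, 0 without both p53-null libraries numbered 2 and 0 to 5 leaving out a library. Over all genes the difference of responses had 445 calls with the replicate block and 1044 with the block within genotype (251 as reported), and the wild-type response 2573 with the latter (1399). In p53-null cells the further pathway genes at an unadjusted p under 0.05 went from 6 to 11 with the replicate block and 21 with the block within genotype. Over all genes that count went from 1246 to 1660 and 2314, and none passed adjusted.

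Between untreated genotypes the median of the 10 genes, 0.32, turned to -0.0725 with total reads, where the median of all genes shifted by -0.36, and ranged from 0.0434 to 0.572 leaving out a library. Ncl turned there to -0.27. The 4 calls became 1 to 5 leaving out a library, and the 50 pathway calls 4 to 61, and 30 without a filter. Without both p53-null libraries numbered 2 they were 1 and 2.

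Between treated genotypes the 5 calls became 2 with these groups alone, 0 without both p53-null libraries numbered 2, and 1 to 5 leaving out a library. The 31 pathway calls became 18 with upper quartile scaling, 11 with these groups alone, 0 without both and 2 to 32 leaving out a library. Total reads shifted the median of all genes by -0.23 here and by 0.13 in the difference of responses.

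Over all genes, calls with the compared groups complete ranged from 810 to 2573 in wild type and 118 to 1044 in the difference. They ranged from 2696 to 4343 untreated (3602 as reported) and 674 to 1766 treated (1342). The 810, 4343 and 674 came from fits of the compared groups alone. Leaving out a library gave 712 to 1452, 33 to 300, 424 to 4148 and 455 to 1485. The causes were not tested. With 2 libraries a group, the p53-null intervals span over a log2 unit for 8 of the 10 genes.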
